A study of Mus musculus with 60 samples.

Results

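The places with HA signal of tagged H3R26C were set against those with trimethylation of histone H3 lysine 27 (H3K27me3) in cells of 1 genotype. The members were the regions called in both independent peak lists of an antibody in H3R26C cells. They numbered 13692 H3K27me3 regions, out of 27226 merged from the lists, and 18395 HA regions, out of 74371. Of the H3K27me3 regions, 451 overlapped an HA region by at least 1 bp, 11849 had no peak in either HA list and 1392 had a peak in a single HA list or in both lists at different places. Of the HA regions, 17620 had no peak in either H3K27me3 list.

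The cells were C3H 10T1/2 (Clone 8), an established mouse line of mesenchymal progenitors, and CUT&RUN, in which an antibody directs a nuclease that cuts out the bound chromatin, was the assay. H3R26C is a human histone H3.1 cDNA (H3C2) whose arginine before lysine 27 is changed to cysteine. It carried HA and FLAG tags at its C-terminus and came from a lentivirus under an EF1 promoter with puromycin selection. The groups used beside it, H3WT, H3R2C and H3R8C, carried the same tagged construct with no change or with another arginine changed. H3R17C, of the same design, entered only an alternative of the comparison between genotypes. The endogenous H3 genes were intact in every group, so the cells held the tagged protein in a pool of normal H3. An HA region is a place with anti-HA signal, taken here as tagged H3, and does not show where all H3 lies. The IgG samples of the series were not used, so unspecific signal was not set apart from tagged H3. H3R26C supplied 6 of the 60 labelled samples of the series to this comparison (3 with anti-H3K27me3, 3 with anti-HA), and in both groups the lists of replicates 1 and 2 were identical, which left 2 independent lists per antibody. The study calls its CUT&RUN replicates biological, while the labels name no separate cultures, so p-values measure the spread between these lists.

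H3K27me3 is written by Polycomb repressive complex 2 (PRC2), whose EZH2 subunit holds the H3 tail around lysine 27 while it adds methyl groups. The mark spreads over broad domains at silent developmental genes, such as the Hox clusters and the paired box and proneural factors, and keeps these genes off in cells of another lineage. H3.1 is built into chromatin mainly at replication, which puts it down broadly along the genome.

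The 2 H3K27me3 lists held 24598 and 22814 peaks with median widths of 3.20 and 1.90 kb. The 2 HA lists held 49586 and 48820 peaks with median widths of 1.10 and 1.05 kb. HA peaks were shallow: the median of their maximum coverage was 5 reads in both lists, against 10 and 8 for H3K27me3. A peak of 1 H3K27me3 list had a counterpart in the other in 57.2% (replicates 1 and 2) and 86.4% (replicate 3) of cases, and an HA peak in 41.7% and 43.3%. The HA map was thus less repeatable than the map of the mark, and the lists themselves carry no read totals, so the precision rests on the spread between lists. Markers of mesenchymal cells fixed for the line had no H3K27me3 region at the start site in 13 of 13 genes. Of all protein-coding genes 10.4% had one, and a difference from that share was not tested. Sox1 and Rbfox3 of the 4 neural markers, Cd3e of the 5 blood markers and Kdr of the 3 endothelial markers had an H3K27me3 region. None of the 4 epithelial markers did.

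Below, 4 stretches of 300 bases show what lies under the strongest signal of each class, read from GRCm38 on the plus strand, 5′ to 3′. Capitals mark CpG dinucleotides. The first 3 are the top region of each class that holds a protein-coding start site, and the fourth lies in the longest region with both signals, chosen after its values were seen.
Gm10800 site, H3K27me3 and HA, chr2:98666976-98667275: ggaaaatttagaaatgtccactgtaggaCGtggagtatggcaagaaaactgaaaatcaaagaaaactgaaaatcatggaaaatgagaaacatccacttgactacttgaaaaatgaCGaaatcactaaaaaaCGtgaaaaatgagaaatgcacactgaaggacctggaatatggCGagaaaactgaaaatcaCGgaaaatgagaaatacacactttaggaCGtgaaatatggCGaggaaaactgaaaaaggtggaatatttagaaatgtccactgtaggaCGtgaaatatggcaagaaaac
Pax2 region, H3K27me3 only, chr19:44749726-44750025: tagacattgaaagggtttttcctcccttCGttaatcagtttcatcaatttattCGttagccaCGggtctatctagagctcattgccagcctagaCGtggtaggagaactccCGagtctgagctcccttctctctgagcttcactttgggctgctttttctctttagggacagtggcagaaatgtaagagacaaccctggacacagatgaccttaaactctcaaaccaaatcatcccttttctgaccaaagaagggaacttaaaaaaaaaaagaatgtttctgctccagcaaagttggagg
Gm10553 region, HA only, chr1:85095076-85095375: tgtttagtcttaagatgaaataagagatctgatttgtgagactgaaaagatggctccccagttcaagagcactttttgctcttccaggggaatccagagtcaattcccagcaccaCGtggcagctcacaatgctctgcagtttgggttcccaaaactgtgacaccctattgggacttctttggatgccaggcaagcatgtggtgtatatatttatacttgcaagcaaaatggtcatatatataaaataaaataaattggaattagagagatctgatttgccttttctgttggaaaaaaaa
Hoxc4 HA site inside the Hoxc H3K27me3 region, chr15:103019926-103020225: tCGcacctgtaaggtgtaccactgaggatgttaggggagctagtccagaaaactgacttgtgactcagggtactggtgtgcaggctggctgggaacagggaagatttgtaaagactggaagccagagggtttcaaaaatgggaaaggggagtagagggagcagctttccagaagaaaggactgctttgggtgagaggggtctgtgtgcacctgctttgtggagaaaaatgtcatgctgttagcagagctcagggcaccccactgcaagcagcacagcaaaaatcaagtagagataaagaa

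The Gm10800 stretch carries the mouse major satellite, the tandem repeat of pericentromeric heterochromatin. Over the whole 1.3-kb region, the sequence matched itself best when shifted by 234 bases (47.8% of positions identical, against a median of 28.5% over shifts of 20 to 400 bases). The maximum coverage there was 39504 and 21113 in the 2 H3K27me3 lists and 353493 and 325744 in the 2 HA lists, so both antibodies piled up at the same place. A genome build holds few of the copies of such a repeat, so reads from many copies can be placed at 1 site, and their part in the signal was not tested. The other 3 stretches had 5, 1 and 1 CpG, each below the number their base content gives (14.2, 11.5 and 16.8), and their maximum coverage was at most 66.

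Across the genome, H3K27me3 regions were poorer in HA than distant places of the same length, and not poorer than their close surroundings. HA regions touched 451 of 13692 H3K27me3 regions, or 3.29%. With copies of these regions shifted up or down their chromosome by 1, 2, 5 or 10 Mb, HA touched 5.16% of them on average, with a range over the 8 moves of 3.72% to 6.56%. The ratio was 0.638, and in bases it was 0.626 (1.32% of H3K27me3 bases against 2.10% of moved bases). With the peaks of each HA list alone, the ratios were 0.784 (replicates 1 and 2) and 0.825 (replicate 3), with a mean of 0.805 ± 0.029 (SD, n = 2). Seen from the other side, 569 of 18395 HA regions (3.09%) touched an H3K27me3 region, against 5.95% when moved.

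The direction changed with the distance of the move. Moved by 20 kb, 2.43% of the regions touched HA, by 50 kb 2.25% and by 100 kb 2.75%, all below the 3.29% in place. Moved by 200 kb the share was 4.52%, and it peaked at 6.77% for 500 kb before it came down to 4.08% for 10 Mb. Over the 8 short moves together the ratio was 1.10, and without the 38 regions that touch a site of coverage of at least 100 it was 1.02. The H3K27me3 regions of H3R26C cells thus lay where HA was low up to 100 kb to either side, and HA touched them no less often than these flanks. At their borders, 0.803% of positions 50 kb outside a region lay in an HA region, 1.01% of those 2.5 kb outside, 1.36% at the border itself and 1.47% at 1 kb inside. Copies moved a short way can land on another marked region (43.5% of those moved by 20 kb, 10.8% of those moved by 1 Mb), so the short moves compare a region with its domain rather than with unmarked chromatin.

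**Figure D1:**
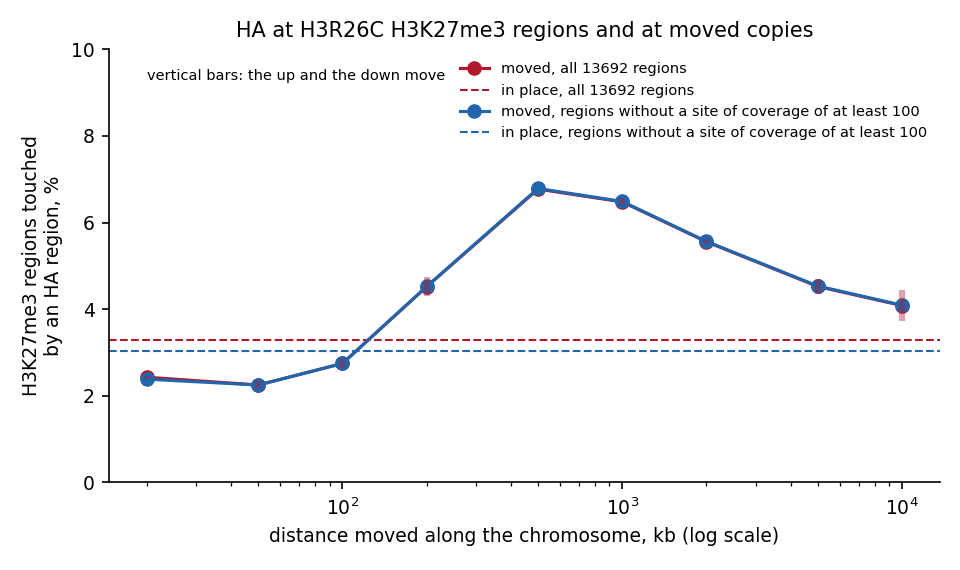
Share of H3K27me3 regions of H3R26C cells touched by an HA region (y axis, %) after a move of 20 kb to 10 Mb (x axis, log scale), for all 13692 regions and for those without a site of coverage of at least 100. Points are the mean of the move up and the move down, vertical bars span the 2 moves, and dashed lines give the share in place (3.29% and 3.02%). The curve is below the dashed lines up to 100 kb and above them from 200 kb on.

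HA was most frequent on the shortest H3K27me3 regions. Of the 607 regions under 2 kb, 79 (13%) touched HA, against 3.62% after the long and 4.22% after the short moves. At lengths of 2 to 5 kb the share was 2.46% (4.01% and 2.25%), at 5 to 10 kb 2.66% (5.30% and 2.69%), at 10 to 20 kb 3.54% (7.29% and 4.35%), and at 20 kb or more 6.48% (11.7% and 8.03%). From 10 kb on, therefore, the marked regions held fewer HA regions than both kinds of moved copy. In the group under 2 kb, 26 of the 79 regions touched a site of coverage of at least 100, and without such sites the share was 9.12%. By strength of the mark, in 5 equal groups by signal per bp, HA touched 1.31% of the weakest and 9.42% of the strongest (7.77% when moved far).

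**Figure D2:**
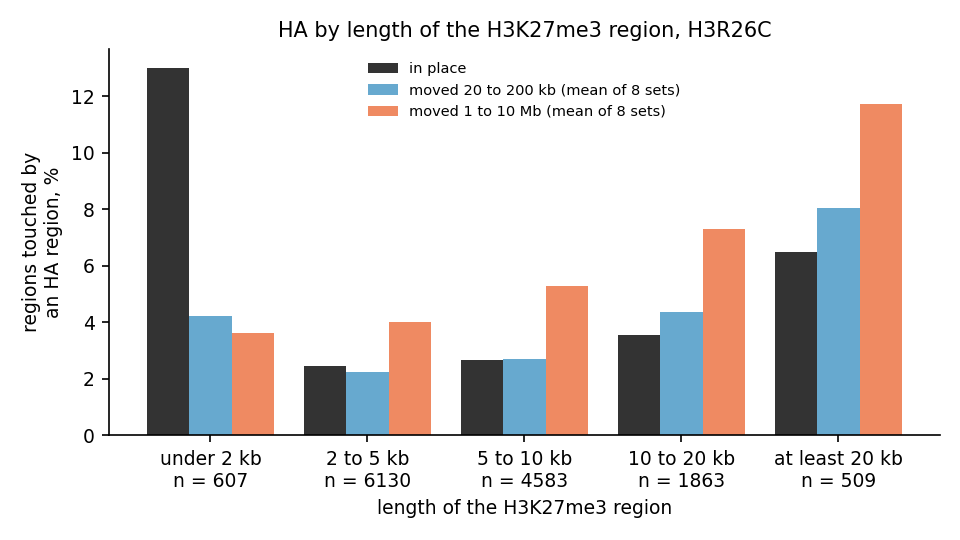
Share of H3K27me3 regions touched by an HA region (y axis, %) in 5 classes of length, in place and after short moves (20 to 200 kb) and long moves (1 to 10 Mb). Bars are 1 share over the n regions given, moved bars the mean of 8 sets; in place exceeds both moved bars under 2 kb (13%) and is below both from 10 kb on.

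HA regions were unevenly spread over chromosomes, and the ratio was below 1 on most. Chromosome 11 had 24.6 HA regions per Mb and chromosome 15 had 20.3, whereas chromosome 3 had 1.74 and X had 2.42. Chromosomes 11, 15, 17 and 19 together held 39.5% of the HA regions on 14% of the genome, but 17.8% of the H3K27me3 regions. The same chromosomes were dense in HA in H3R8C (20.3 per Mb on chromosome 11) and H3WT (8.48 against 3.71 genome-wide), as well as in H3R26C. The share of H3K27me3 regions with HA was below that of their moved copies on 18 of 20 chromosomes that carried the mark. The exceptions were chromosome 8 (9.21% against 5.72%) and X (1.93% against 0.797%). Without chromosomes 11, 15, 17 and 19 the ratio was 0.596.

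Regions with both signals were scattered, with a few clusters. A single megabase of chromosome 8, from 20 to 21 Mb, held 38 of the 451, out of 41 H3K27me3 regions there. It contains Gm15319, the beta-defensin gene Defb33 and other gene models, and the megabase before it, with the beta-defensins Defb3 to Defb8, held 9 more out of 11. Families of copies also lay on chromosome 17 at 6 to 7 Mb (12 of 40), with the dynein light chain copies Dynlt1a, Dynlt1b, Dynlt1c and Dynlt1f, and chromosome 5 at 15 to 16 Mb (9 of 9), with Speer4c and Speer4d. These genes belong to families of close copies, and how reads that fit several copies were placed is not given in the sources used here, so their values are uncertain. Other clusters were 10 of 15 regions in chr11:98000001-99000000, around Neurod2, Erbb2 and Gsdma, 10 of 28 in chr11:118000001-119000000, around Timp2 and Rbfox3, 9 of 17 in chr15:77000001-78000000, around the apolipoprotein L genes, and 9 of 30 in chr15:78000001-79000000, around Pvalb and Il2rb. Over all, 204 of the 1-Mb windows held at least 1 region with both, 132 of them a single one, and 19 windows with 5 or more held 170 of the 451.

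Most regions with both signals had HA in the other genotypes as well. Of the 451, 337 (74.7%) touched an HA region of H3WT cells, 329 one of H3R2C cells and 309 one of H3R8C cells, and 236 (52.3%) touched HA in all 3. Moved copies touched HA of H3WT in 19.8%, of H3R2C in 12.7% and of H3R8C in 12.7% of cases. Of the 451, 42 touched an HA region in none of the 3. Of the HA regions of H3R26C as a whole, 3789 (20.6%) were found in all 3 other genotypes and 3325 (18.1%) in none. The recurrent ones touched the mark in 6.36% of cases (7.03% when moved far, 4.18% when moved a short way), and those found in H3R26C alone in 2.11% (5.23% and 3.11%).

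The named regions are examples of each class, and the classes with 1 signal hold by definition no peak of the other antibody. Signal is given here as total signal over a region divided by the library's median over its regions, first for replicates 1 and 2 and then for replicate 3. Among regions with both, the highest were satellite and multicopy sites: Gm10800 (H3K27me3 507 and 731, HA 29080 and 28935), Gm21738 on chromosome 14 (235 and 333, HA 14598 and 14725), Gm10720 to Gm10717 on chromosome 9 (34.3 and 45.7, HA 3677 and 4300), Gm10801 (44.4 and 59.6, HA 2321 and 2216) and Gm15319 (18.2 and 30.0, HA 82.0 and 79.0). The 2 highest HA peaks held 39.1% and 39.6% of all signal in the HA lists.

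Below a coverage of 100, by the same ranking added after the values were seen, Gm15319 was followed by Apol11b, an apolipoprotein L gene (8.25 and 11.3, HA 13.7 and 17.7). The next was the whole Hoxc cluster, Hoxc13 to Hoxc4, at chr15:102894401-103078400 (160 and 184, HA 13.7 and 9.52). This region of 184 kb was the longest that carried the mark. Trpm8, a cold-sensing ion channel (3.98 and 4.23, HA 9 and 10.7), and Mafa, a transcription factor of the insulin gene (7.08 and 8.32, HA 5.82 and 5.65), came after it. In the Hoxc cluster, HA filled 3 places of 1.95, 1.60 and 1.90 kb, of which only that at chr15:103018901-103020850 lay within 1 kb of a start site, that of Hoxc4. Its HA signal was 0.896 and 1.37, near the median of all HA regions.

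The strongest regions with the mark and no HA peak were Pax2, a factor of kidney and eye development (chr19:44728301-44768900, 40.4 and 53.1), Pax5, which sets B cell identity (37.8 and 53.6), and Stk26, a serine/threonine kinase on X (35.8 and 45.6, the longest at 88.6 kb). Sox1, a factor of neural progenitors (23.6 and 39.0), and Lbx1, of migrating muscle precursors (26.7 and 33.3), followed. At all 5 the HA signal was 0 in both lists, as the class requires. The strongest HA regions without the mark were Gm10553 (38.9 and 36.8), Faim2, an inhibitor of death receptor signalling and the longest at 28.45 kb (36.9 and 32.5), C130026I21Rik (31.1 and 28.8), Aqp2, the water channel of the kidney's collecting duct (30.0 and 27.8), and Plau, the urokinase gene (27 and 27.6). None of these 5 had an H3K27me3 peak in either list, again as the class requires.

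In annotation, 39.2% of the regions with both signals reached within 1 kb of a start site (20.4% when moved far), against 23.9% of those with the mark only (15.9%) and 15.1% of HA regions without the mark (11.2%). By the centre of the region the figures were 12.6%, 8.44% and 8.37%. HA regions without the mark were richer in G and C (median 47.1%, moved 43.5%) than H3K27me3 regions without HA (42.8%, moved 41.6%). Those with both lay at 46.4%. CpG per kb had medians of 10.5, 8.57 and 11.1 in the same order.

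Few genes had both the mark and HA. A gene was given a signal when a region called in both lists of the antibody reached within 1 kb of any of its start sites. The regions of a gene with both signals thus need not overlap. Of 21938 protein-coding genes, 2286 (10.4%) had the mark and 1612 (7.35%) had HA. Both were found at 75 genes, the mark alone at 2211 and HA alone at 1537. HA was found at 3.28% of genes with the mark and 7.82% of genes without. With the peaks of the single HA lists the shares were 6.61% against 13.5% (replicates 1 and 2) and 7.66% against 15.7% (replicate 3), so each list gave the same order. On chromosomes 11, 15, 17 and 19 the shares were 8.33% and 19.7%, on the others 2.02% and 5.03%. Of the 75 genes with both, 38 lay on those 4 chromosomes, and 17 were numbered gene models. Among the others were Gcgr, the glucagon receptor, Mapt, which encodes tau, Nefh, a neurofilament, Dll4, a Notch ligand, and Sox10, a factor of neural crest.

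The lists of developmental regulators and signals had the mark more often than the 10.4% of all genes, and only Hoxc4 and Tbx4 in them had both signals. Of all genes with the mark 3.28% had HA, and whether the marked genes of these lists differ from that share was not tested. In the Hox list 31 of 39 genes had the mark, and only Hoxc4 had HA as well. Hoxb1 to Hoxb9 lay in 1 marked region of 136.05 kb and had no HA region at a start site. Of 54 other homeobox and paired box genes 31 had the mark, none of them with HA, and Dlx3, a factor of skin and placenta, had HA alone (2.16 and 2.94). Of 15 proneural factors 13 had the mark, such as Neurog1 (14.1 and 18.9) and Olig2 (19.8 and 26.3), and none had HA. Of 25 T-box, forkhead and GATA factors 11 had the mark. Tbx4, of the hindlimb field, had both (mark 1.35 and 1.22, HA 0.627 and 0.667), and Tbx1 and Foxj1 had HA alone. The Tbx4 regions, chr11:85889551-85896000 for the mark and chr11:85885451-85887250 for HA, did not overlap. Of 36 Wnt, Fgf and Bmp ligands 19 had the mark and none of these had HA, and Wnt1 (5.18 and 4.86) and Gdf5 had HA alone. Between 44% (T-box, forkhead and GATA factors) and 86.7% (proneural factors) of these 5 lists had the mark. HA was found at 12% of the T-box, forkhead and GATA factors and 5.56% of the ligands, against 7.35% of all genes, and at 2.56% or less of the other 3 lists.

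In the muscle, fat, bone and cartilage lists few genes had the mark or HA, and none had both. Over all genes with the mark, 3.28% had HA, and no difference of these lists from that share was tested. The mark was at 17.6% of the muscle and 30.8% of the cartilage list (10.4% of all genes), and HA at 23.1% of the bone list (7.35% of all genes). In the muscle list 3 of 17 genes had the mark (Myod1, the muscle master factor, Myh3 and Myh13) and Tnnt3 had HA. In the bone list Sost had the mark, and HA alone was found at Sp7, which drives osteoblast formation (3.33 and 4.84), Bglap (osteocalcin) and Alpl (alkaline phosphatase). In the cartilage list 4 of 13 had the mark, Acan and Col9a1 among them, and none had HA. None of the 15 fat genes and none of the 15 housekeeping genes had either. Of 24 mesenchymal genes in use, Col5a1 had HA and none the mark. Of 30 genes in the Polycomb list, which holds Kdm6a and Kdm6b beside the subunits, Epop and Phc2 had the mark and Cbx7 had HA (0.687 and 1.08). H3f3b, which encodes H3.3, was the 1 gene of 14 histone H3 genes with a signal, HA at 4.01 and 4.40. Igf2, Kcnq1, Slc22a3 and Gnas of 17 imprinted genes had the mark, and so did Grin2c of 21 receptor channels. Among 1134 olfactory receptor genes 84 had the mark (7.41%) and 9 had HA (0.794%), and Olfr1395, Olfr281 and Olfr285 had both. Of the markers of other cell types, Spi1, Krt8, Pecam1 and Tubb3 had HA alone, as had Eng of the mesenchymal markers.

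**Figure D3:**
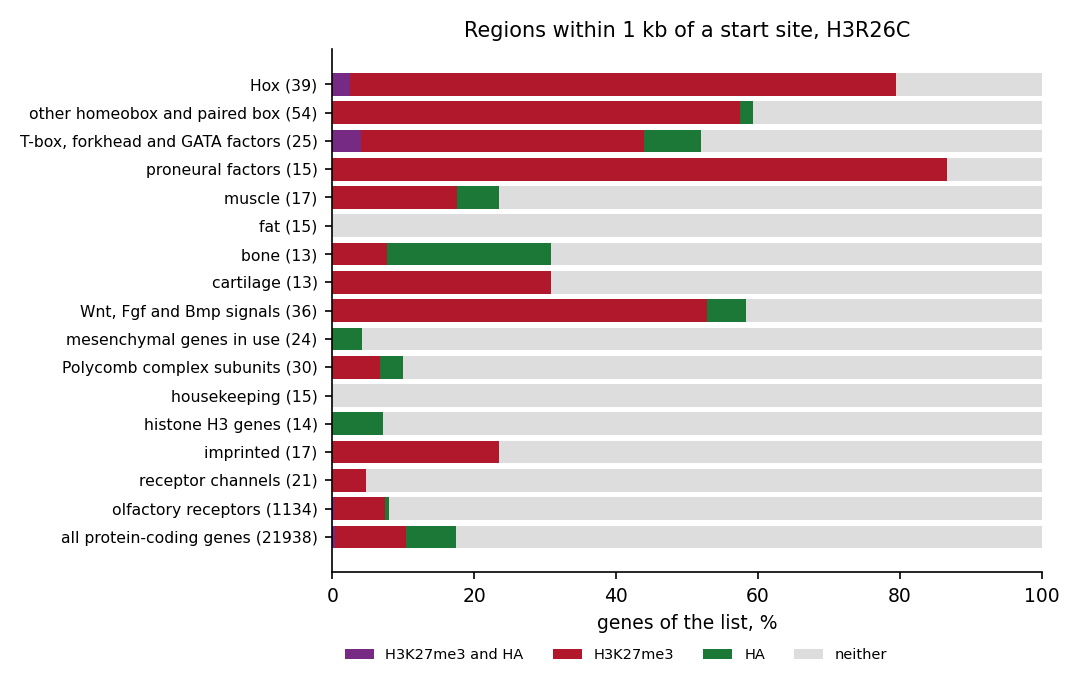
Share of the genes of each list (x axis, %; number of genes in brackets) with an H3K27me3 region, an HA region, both or neither within 1 kb of a start site in H3R26C cells. The Hox and proneural lists are nearly all H3K27me3 (31 of 39 and 13 of 15 genes), and the class with both is seen only in the Hox, T-box and olfactory lists and among all genes.

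The same ratio of HA in place to HA at moved copies was lower in H3R26C than in the other genotypes, each set against its own H3K27me3 regions. It was 0.784 and 0.825 in the 2 H3R26C libraries, 1.09 and 1.19 in H3WT, 1.51 and 1.59 in H3R2C, and 1.07 and 1.08 in H3R8C. For the peaks of single lists, both H3R26C libraries were below 1 and all 6 others above it, without overlap. For regions called in both lists, the ratio was also below 1 in H3WT (0.983) and H3R8C (0.871), above it in H3R2C (1.58), and 0.638 in H3R26C. The difference of the means was -0.452 (0.805 against 1.26), and in the exact permutation test (two-sided, 2 against 6 libraries) p was 0.0714, where 28 arrangements allow no less than 0.0357. The test thus missed the threshold of 0.05, and 1 other arrangement of the libraries gave a difference at least as large.

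The ratio also changed with the set of H3K27me3 regions used. For regions called in both lists, the HA map of H3R26C gave a ratio of 0.638 over the H3K27me3 regions of H3R26C, but 0.901 over those of H3WT. The H3K27me3 regions of H3R26C gave 0.722 with the HA map of H3WT and 0.645 with that of H3R8C, and 1.36 with that of H3R2C. With the H3K27me3 regions of H3WT used for every library, the H3R26C mean was 1.09, above 1, and the difference of the means was -0.149 (p = 0.25, exact permutation test). With moves of 20 to 200 kb it was -0.0457 (p = 0.679, exact permutation test), with means of 1.11 in H3R26C and 1.16 in the others, and neither reached the threshold.

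**Figure D4:**
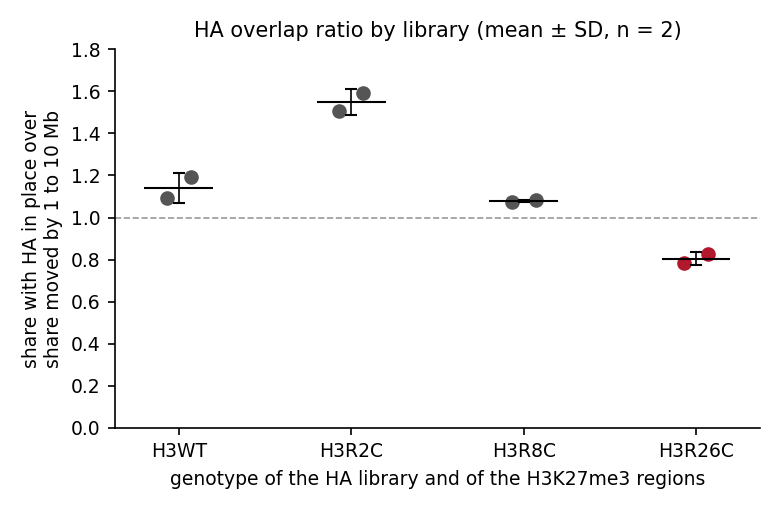
Ratio of the share of H3K27me3 regions touched by HA peaks in place to the mean share after moves of 1 to 10 Mb (y axis), per HA library of 4 genotypes (x axis). Points are libraries, lines and error bars the mean ± SD (n = 2), and the dashed line is 1; both H3R26C points (0.784 and 0.825) are below it and the 6 others above.

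The signal of the mark was then compared between H3R26C and H3WT at regions with and without an HA region of H3R26C. The regions were 20973 consensus regions called in both lists of at least 1 of 4 genotypes, 1005 of them touched by an HA region of H3R26C, and limma was fitted over all of them. H3K27me3 was lower in H3R26C at 1513 regions (7.21%) and higher at 1758 (8.38%). Of the regions with HA, 255 were lower (25.4%) and 29 higher (2.89%). Of the 19968 without HA, 1258 were lower (6.30%) and 1729 higher (8.66%). The median log2 difference was -0.34 with HA and 0 over all regions. Where an HA region of H3R26C lay, the mark was lower than in H3WT more often than elsewhere. A region called in H3WT and not in H3R26C had to be lower, and 119 of the 255 had no peak in either H3R26C list. In the same way, 18 of the 29 higher regions with HA, and 1329 of the 1758 in all, had no peak in either H3WT list and could only be higher. Among the 5586 regions with a peak in all 8 libraries, 111 of 362 with HA were lower (30.7%, against 9.81% of all). Of these 362, 27 were higher (7.46%, against 7.38% of all). The lower share of higher regions with HA was thus not seen in this set.

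The lower regions with HA were long and not tied to the HA-dense chromosomes. On chromosomes 11, 15, 17 and 19, 27.6% of 457 regions with HA and 4.78% of 3161 without were lower, and on the others 23.5% of 548 and 6.59% of 16807. At 10 kb or more, 138 of 336 regions with HA were lower against 410 of 4483 without, and under 5 kb 36 of 361 against 460 of 8794. The share also went with the neighbourhood: of regions with no HA region on them but 1 within 50 kb, 15.0% of 2133 were lower, against 5.25% of 17835 with none so near. Where an HA region of H3WT lay but none of H3R26C, 16.3% of 1364 regions were lower. Where H3R26C had HA and H3WT had none, 19.2% of 266 were, and where both had it, 27.6% of 739. The presence of the mutant protein and the places with HA signal in either genotype cannot be told apart here.

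Over the same 1005 regions and against the same H3WT libraries, H3R8C was lower at 21 and higher at 22 (2.65% and 3.30% of all regions), and H3R2C was lower at 67 and higher at 304 (12.5% and 17.7% of all). The 3 comparisons share the H3WT libraries, and their values are set side by side without a test between them.

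**Figure D5:**
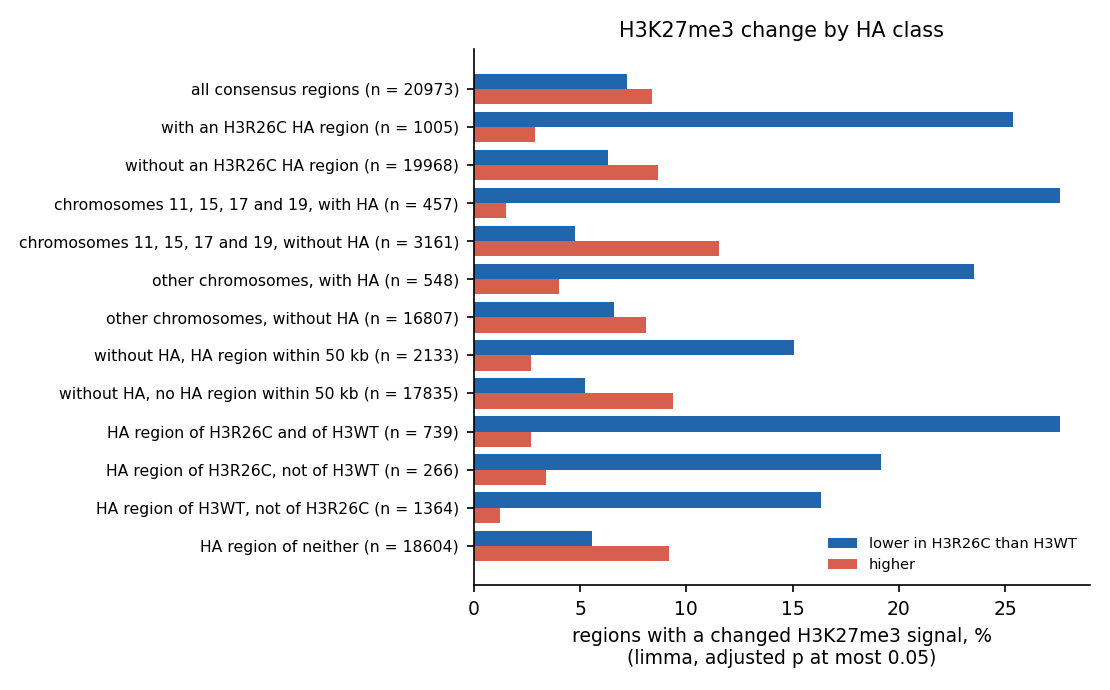
Share of consensus regions (x axis, %) with H3K27me3 lower (blue) or higher (red) in H3R26C than in H3WT by limma at an adjusted p of at most 0.05, over all regions and over classes by HA, chromosome, neighbourhood and HA of H3WT (n in brackets). The lower share is 25.4% with an H3R26C HA region and 6.30% without, while the higher share is 2.89% and 8.66%.

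The largest falls with HA and a start site included interferon, neutrophil and olfactory receptor genes. These were chosen by size after the fit, without chromosome 18, and scaled signal is given for replicates 1 and 2 and then for replicate 3. At the interferon alpha genes Ifna7 to Ifna1 on chromosome 4 (53.55 kb) the signal was 13.5 and 12.1 in H3WT and 0.601 and 0.267 in H3R26C (log2 difference -4.30 ± 0.26 SE, limma adjusted p = 0.0002). H3R2C (10.2 and 12.9) and H3R8C (14.1 and 11.9) had values near those of H3WT there. At S100a8 and S100a9, which encode the calprotectin of neutrophils, it was 5.65 and 5.25 in H3WT and 0.363 and 0 in H3R26C (-3.86 ± 0.39 SE, limma adjusted p = 0.00153). At Olfr1395 and Olfr1394 it was 4.51 and 4.15 against 0.284 and 0.213. Lrrc74a (3.05 and 2.95), the homeobox gene Dlx4 (1.45 and 2.28) and Gtsf2 with Nckap1l, of blood cells (1.51 and 1.58), had the mark in H3WT and no peak in either H3R26C list. The HA region at Dlx3 (chr11:95116651-95119900) lies next to the Dlx4 region (chr11:95137551-95149900). In each of these regions both H3R26C libraries were below both H3WT libraries. The same held for all 255 lower regions with HA and all 1513 lower regions, so it adds nothing to the call.

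Of the 29 regions with HA that were higher, 2 held, outside chromosome 18, a protein-coding start site, those of Esx1, a homeobox gene of the placenta on X (1.93 and 1.94 in H3WT, 3.6 and 4.23 in H3R26C), and Fbxo43, a meiotic inhibitor of the anaphase-promoting complex (1.87 and 1.82, then 3.46 and 3.99). The median length of the 29 was 4.25 kb, against 10.95 kb for the 255 that were lower.

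Marked developmental genes changed in both directions, most of them without HA, which 19968 of all 20973 consensus regions lacked. HA here means an HA region anywhere on the consensus region, also beyond 1 kb of a start site. Of the consensus regions within 1 kb of a protein-coding start site, 9.46% were lower and 8.69% higher. These are shares of regions, while the counts that follow are of genes. A gene with several regions was given the one with the smallest p, which favours a call. None of the 31 Hox genes with a region passed the test: at the Hoxc cluster, in a consensus region of 276.75 kb, the signal was 97.6 and 93.3 in H3WT and 89.7 and 106 in H3R26C (log2 difference 0.03 ± 0.45 SE). Of 33 other homeobox and paired box genes with a region, 6 fell and 2 rose. Nkx2-5, of heart progenitors, was the 1 of the 6 with an HA region (4.51 and 5.13 in H3WT, 1.04 and 1.3 in H3R26C, limma adjusted p = 0.000956), and Pax1, Six6 and Lhx2 were among those that fell without one. Isl1, of motor neurons and heart, rose from 0.670 and 1.24 to 4.77 and 7.45, and Alx1 rose from 1.16 and 1.15 to 1.8 and 1.94. Tbx4 fell from 2.21 and 2.66 to 1.28 and 1.45 with HA. So did Grin1, a glutamate receptor subunit (2.89 and 3.62 to 1.66 and 1.09). Neither Nkx2-5 nor Grin1 had an HA region within 1 kb of a start site.

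In the muscle list 2 of 3 genes with a consensus region rose, and in the cartilage list 2 of 4, while none fell. All these genes lacked HA, as most consensus regions did (19968 of 20973). Of the consensus regions within 1 kb of a protein-coding start site 8.69% were higher, and a difference from that share was not tested. Myod1 went from 0.826 and 1.13 to 1.84 and 2.21, Myh3 from 1.97 and 1.82 to 3.35 and 4.83, and Acan, the aggrecan gene of cartilage, from 1.24 and 1.24 to 2.54 and 3.20. Sox6, a cartilage factor, had no peak in either H3WT list and 2.12 and 3.49 in H3R26C. Among the Wnt, Fgf and Bmp ligands Wnt11 and Fgf3 fell and Wnt6, Bmp3 and Gdf6 rose, 5 of 22 with a region, again without HA. Neurod6, of 14 proneural factors, had peaks in H3R26C (0.440 and 0.503) and in no library of the other 3 genotypes, so its region was tested only because H3R26C had it. Kdr, an endothelial marker, had 0.526 and 0.494 in H3R26C and no peak in either H3WT list, and could likewise only be higher, as could Sox6. No gene of the fat, bone, imprinted, Polycomb, blood and neural lists that had a consensus region passed the test, and the housekeeping, H3, epithelial, mesenchymal marker and mesenchymal in-use genes had no such region.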

How the data were processed

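The deposited BED lists of 29 anti-HA and anti-H3K27me3 samples were used, 1 list per labelled sample. Per the study's methods, the authors used Rsubread for alignment of single-end reads (mm10) and SEACR 1.3 for peaks (stringent, normalised, numeric threshold 0.01). The deposited signal values are whole-number coverage, as a total and a maximum per peak, not scaled to depth, on a 50-bp grid. Such a caller keeps a top share of blocks, so counts of peaks are partly set by it. Read totals are stated per library in the reporting summary and were not used: they differ between replicates 1 and 2, whose lists are identical, so the total behind that list is unknown. The placement of multiply mapped reads is not given in the sources used here. Of the H3R17C lists, 1 whose name gives another mark than its label was not used.

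Groups and replicates came from the sample titles, and identical lists were counted once. Overlapping or adjoining peaks of both lists were joined, and a region was kept when both lists reached it. Moved copies (8 sets) give a background level, not a chance test. Per-library ratios were compared by an exact permutation test. limma 3.58.1 (R 4.3.3; lmFit, eBayes with trend) ran on log2(scaled signal + 0.25), where signal is scaled by the median over regions with a peak in every library and a region without a peak is 0, with Benjamini-Hochberg adjustment over 20973 regions and a threshold of 0.05. It was tested on simulated data first. Genes and start sites are from GENCODE M21 (GRCm38). Named were the 5 highest regions of each class with a protein-coding start site (chromosome 18 left out), the longest of each class, and list members. The members and lists were chosen with earlier results of these data known. Alternatives covered peak thresholds, list sizes, overlap, merging, distances, scaling, pseudocounts and left-out libraries. Values of some list members are not reported here.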

Additional observations from a re-analysis of the deposited data

Results flagged for a closer look

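The ratio of HA overlap at H3K27me3 regions to that at copies moved by 1 to 10 Mb differed in direction between genotypes for the peaks of single HA lists. It was below 1 in both H3R26C libraries (0.784 and 0.825) and above 1 in all 6 libraries of H3WT, H3R2C and H3R8C (1.07 to 1.59), a difference of means of -0.452. The exact permutation test of the difference gave p = 0.0714 (two-sided), above the threshold of 0.05, so the opposite directions are given as values. The opposite direction was lost for regions called in both lists, where H3WT (0.983) and H3R8C (0.871) were below 1 as well. It was also lost with the H3K27me3 regions of H3WT for every library, where the H3R26C mean was 1.09 and the difference -0.149.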

How the results depend on the processing

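The overlap ratio of 0.638 was below 1 under 15 of 18 alternatives and above 1 under 3: 1.10 for moves of 20 to 200 kb, 1.02 for these moves without regions of coverage of at least 100, and 1.07 when at least 50% of a region had to be covered. It was 0.766 for the upper 50% of peaks, 0.708 for equal numbers of peaks, 0.737 for all 3 labelled replicates, 0.588 for merging within 1 kb, 0.776 for bases called in both lists, 0.608 for autosomes, 0.596 without chromosomes 11, 15, 17 and 19, 0.585 without regions of coverage of at least 100, 0.544 for regions of at least 2 kb and 0.717 for copies on the same class, and 0.594 to 0.825 without 1 library. The moves of 20 to 200 kb and the restrictions by chromosome, coverage, length and class were added after seeing the data, and the cause of each shift was not tested. Genes with both numbered 37 for the upper 50% of peaks, 46 for equal numbers, 188 for all labelled replicates, 35 for the start site itself and 195 for 5 kb, and 71 to 175 without 1 library, where the 151 and 175 came without an anti-HA list. Genes with HA alone numbered 924, 868, 2704 and, for 5 kb, 2768, and 1525 to 3076 without 1 library. Genes with the mark alone stayed between 1756 and 2860, and HA was rarer at marked genes in each case (ratio of shares 0.319 to 0.491). The 19 named regions kept their class under all 7 alternatives run. None of these could add a peak of the missing signal to a region with 1 signal. The named regions are also the highest or longest of their class, so this result was largely set by the choice. The genotype difference kept its sign under 16 alternatives, with p from 0.00909 to 0.679 (exact permutation tests). In the same exact test it passed 0.05 with H3R17C added (-0.469, p = 0.0222) and with identical lists counted as separate (-0.436, p = 0.00909, which repeats libraries), and lay between -0.485 and -0.431 without 1 library. Lower regions with HA numbered 82 without scaling, 111 with a peak in every library, 658 for a peak in either HA list and 141 to 205 without 1 library (163 without H3R26C replicate 3, 141 without H3WT replicate 3), where the lone library is assumed to vary like the other groups. Higher regions with HA numbered 11, 27, 99 and 18 to 40. With the replicate number as a block, 214 were lower and 31 higher, and deviations of same-numbered libraries correlated at 0.00118 to 0.152 over the pairs of groups, so the samples share only a number. The lower share with HA exceeded that over all regions under each of the 14 alternatives. The shallow HA peaks (median maximum coverage of 5) limit what the absence of an HA region shows.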

Other observations

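Signal per bp of the mark and of HA was hardly related across the 1843 H3K27me3 regions with a peak in at least 1 HA list (Spearman's rho 0.03 across regions, which are not independent). Pearson's r of the log2 values was 0.50. Between the 2 libraries of an antibody, rho was 0.53 for H3K27me3 over 13692 regions and 0.24 for HA over 18395. HA regions were also gathered in large windows: of 557 windows of 5 Mb, 102 held none, and the densest, at chr11:115000001-120000000, held 629 HA and 53 H3K27me3 regions.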
